A study of Mus musculus with 5 samples.

Results

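Papilla cells of mutant mouse skin that carried many transcripts of 3 Hedgehog target genes were compared with papilla cells of the same libraries that carried none. Single-cell RNA sequencing had been run on whole dorsal skin of female mice at postnatal day 46. The mutant genotype is written Lepr-Cre;mTmG;Smo+/- in the labels, and 2 libraries of it were used. The control is titled Lepr-Cre;mTmG, although the protocol adds Smo to its name, and also has 2 libraries. All animals carried Lepr-Cre, a recombinase driven by the leptin receptor locus. They also carried mTmG, a reporter at Rosa26 whose membrane tomato is replaced by membrane GFP once the recombinase cuts it. What was done to the Smo allele, and how many animals gave a library, is not in the labels. Both libraries of a genotype are described there as technical replicates. P-values therefore cover the spread between preparations and not that between animals. A library of sorted cells from day 50 was not analysed here.

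Members were chosen by their counts. A barcode entered the papilla gate with 500 to 8000 genes, at most 10% mitochondrial UMIs (unique molecular identifiers, 1 per captured transcript), 3000 to 12000 UMIs in all, and at least 3 UMIs over Slc26a7, Pappa2, Prlr, Alx4, Wif1 and Inhba. Barcodes with 20 or more UMIs per 10000 from Krt14 and Krt5, or 50 or more from Col1a1 and Col3a1, were left out. Of 23379 barcodes in the mutant libraries 2102 passed, out of 45654 in the whole series. A cell was called active with at least 4 UMIs over Gli1, Ptch1 and Hhip, and inactive with 0. This gave 286 and 287 active cells and 493 and 492 inactive cells in mutant libraries 1 and 2, and the 544 cells with 1 to 3 such UMIs were left out.

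The dermal papilla is the cluster of mesenchymal cells at the base of the hair follicle that sends growth signals to the epithelium around it. Hedgehog ligands come from the follicle epithelium, bind the receptor Ptch1 on the papilla and so release Smo, a membrane protein that turns on the Gli transcription factors. Ptch1, Gli1 and the decoy receptor Hhip are themselves induced by the pathway, so their transcripts are widely used as its readout. In skin the pathway is known for its part in the development and growth of hair follicles.

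The summed counts rested on 1908239 and 1838926 UMIs for active and 3075162 and 3027742 UMIs for inactive mutant cells. Active cells were slightly deeper, with medians of 6481.5 and 6197 UMIs against 6045 and 5975.5, and mitochondrial transcripts took 3.94% and 3.99% of the active and 3.82% and 3.73% of the inactive sums. Between 117 and 192 barcodes were shared by any pair of unsorted libraries, and 14 of the compared mutant cells had one, 6 active and 8 inactive. Levels below (CPM) are UMIs of a gene per 1000000 UMIs of the sum. They are given for mutant libraries 1 and 2 in that order, and a single transcript end is counted whatever the gene's length, so levels are compared between cells and not between genes.

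The 3 genes that set the states are described without a test. Ptch1 (chromosome 13, 63508328 to 63573598 on the minus strand, GRCm38) gave 1329 UMIs in the active cells of library 1 and was detected in 93.4% of them. Hhip (chromosome 8, 79965851 to 80058006, minus strand) gave 1165 UMIs and was also detected in 93.4%. Gli1 (chromosome 10, 127329882 to 127341974, minus strand), the transcription factor, gave 397 UMIs and was detected in 70.6%. All 3 genes were present in 176 of 286 and 167 of 287 active cells, so the call seldom rested on 1 gene. Only Ptch1 was present in 5 and 7 active cells, only Hhip in 7 and 7, and only Gli1 in none. The median active cell held 9 such UMIs in both libraries, with maxima of 31 and 30. Just inside the threshold, 38 and 30 cells had exactly 4 UMIs, and just outside it 37 and 46 had exactly 3.

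**Figure D1:**
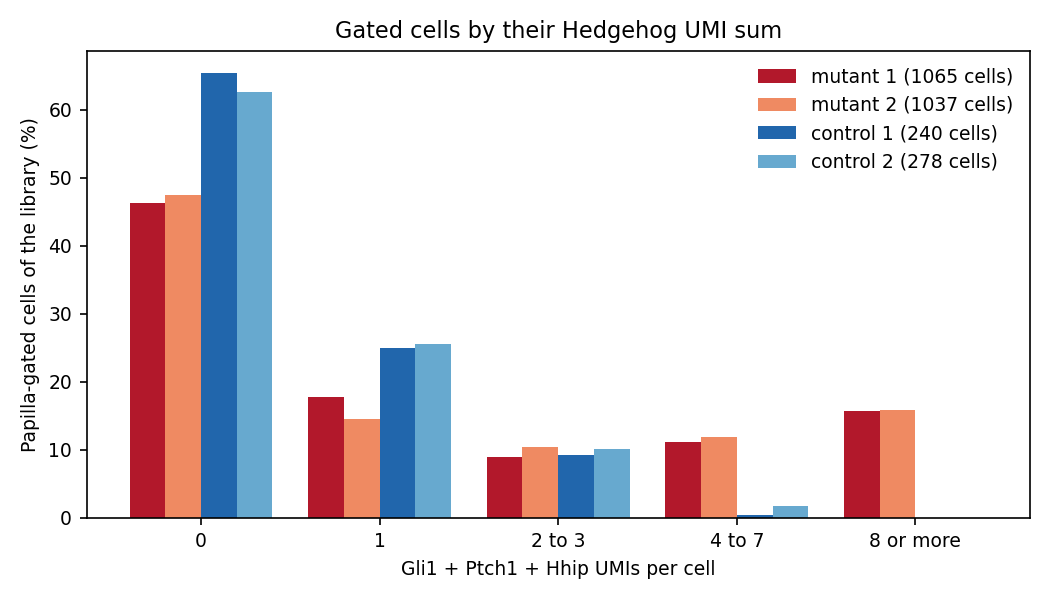
Share of papilla-gated cells (y axis, percent of each library's gated cells) by the number of Gli1, Ptch1 and Hhip UMIs in the cell (x axis), for 2 mutant and 2 control libraries. In the mutant libraries 15.7% and 15.8% of gated cells held 8 or more such UMIs, and no gated control cell did.

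The genes of the gate are also part of the choice and are described only. Wif1, a secreted protein that binds Wnt ligands, stood at 2095 and 2194 CPM in active and 179 and 169 CPM in inactive cells. Slc26a7, an anion exchanger, went the other way, with 249.97 and 234 CPM in active and 1055 and 1045 CPM in inactive cells. Most gate UMIs thus came from Wif1 in active cells and from Inhba and Slc26a7 in inactive cells. With Wif1 and Inhba left out of the gate, 186 of 286 and 175 of 287 active cells still passed. Of inactive cells 430 of 493 and 436 of 492 did. Inhba, a subunit of activin, was at 815 and 953 CPM against 1412 and 1836 CPM, and Pappa2, a protease that cuts Igf-binding proteins, at 115 and 115 CPM against 358 and 367 CPM. Alx4, a homeodomain factor, was at 47.2 and 60.4 CPM against 14.3 and 10.2 CPM, and Prlr, the prolactin receptor, at 384 and 390.4 CPM against 458 and 451 CPM. Inactive cells of the control libraries, gated in the same way, had Wif1 at 99.8 and 116 CPM and Slc26a7 at 462 and 409 CPM.

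Active cells made up 26.9% and 27.7% of the gated cells in the mutant libraries and 0.417% and 1.80% in the control libraries. In numbers these were 286 of 1065 and 287 of 1037 mutant cells, but 1 of 240 and 5 of 278 control cells. The mean shares were 27.3% ± 0.581 and 1.11% ± 0.977 (SD, n = 2 each). The share counts the genes that the rule used, so it is a description. An exact permutation test over the libraries gave p = 0.333, the smallest value possible with 2 per genotype, and so could not decide. T cells, taken as the background of free RNA, had 4 or more such UMIs in 0 of 931 and 0 of 972 cells of the mutant libraries, which allows a share of up to 0.322% and 0.309%. The T cells of the control libraries reached the threshold in 2 of 1060 and 1 of 1131 cells. At least 1 such UMI was present in 9.77% and 7.92% of the mutant and 6.13% and 6.72% of the control T cells. Exactly 1 was present in 17.8% and 14.5% of gated mutant cells and in 60 of 240 and 71 of 278 gated control cells. Single UMIs were thus more frequent in gated cells than in this background. Since T cells held them too, cells with 1 were kept out of both states.

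Across the transcriptome, 495 genes were higher and 485 lower in active than in inactive mutant cells, of 10933 tested, together 8.96%. A gene was called at an adjusted p under 0.05 with at least a 2-fold difference in edgeR's quasi-likelihood test, and 4.53% of the tested genes were called higher and 4.44% lower. The 3 state genes, the gate genes, Krt14, Krt5, Col1a1 and Col3a1 were not tested. Since counts were summed over cells, fewer cells with a gene and less of it per cell cannot be told apart. Scaling to total UMIs in place of TMM, a scaling to the bulk of genes, raised log2 fold changes by 0.16 and moved the counts to 690 higher and 346 lower, so that 66.6% of calls were higher in place of 50.5%. DESeq2 called 158 higher and 213 lower, and leaving out mutant library 1 or 2 left 152 or 169 higher and 260 or 239 lower. Each state was then 1 mutant sum, fitted together with the control sums, which supplied the spread, and that sum is assumed to vary as they do. This holds for every statement below on a gene without library 1 or 2.

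**Figure D2:**
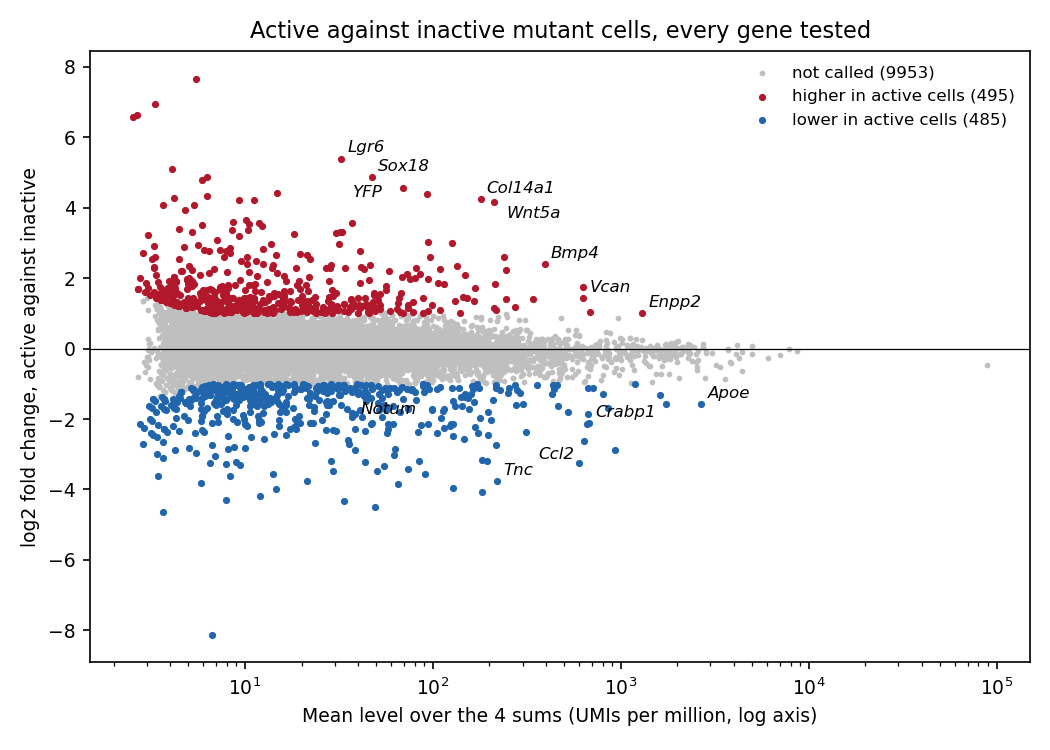
Log2 fold change of active against inactive mutant cells (y axis) against the mean level over the 4 sums (x axis, CPM, log axis) for the 10933 genes tested. Red points are the 495 genes called higher and blue points the 485 called lower. Wnt5a, Col14a1 and Bmp4 combined a high level with a large rise, and Tnc, Crabp1, Ccl2 and Apoe with a large fall.

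The 12 largest rises included receptors, a Wnt ligand, a collagen and proteases. Lgr6, a receptor for R-spondins, rose from 1.30 and 1.32 CPM in inactive to 67.1 and 60.4 CPM in active cells (log2 fold change 5.40 ± 0.30, SE, adjusted p = 1.5e-29), and was detected in 94 and 80 active but only 4 and 3 inactive cells. Wnt5a (chromosome 14, 28504750 to 28527448 on the plus strand), a noncanonical Wnt ligand of the papilla, rose from 21.5 and 18.5 CPM to 406 and 398 CPM (4.17 ± 0.11, adjusted p = 1.1e-54). Inactive control cells had Wnt5a at 25.5 and 12.9 CPM, a range that holds both inactive mutant values. Sox18, a transcription factor that acts in papilla and endothelium, rose from 2.60 and 2.97 CPM to 100.1 and 83.2 CPM (4.86 ± 0.23). Blood endothelial markers summed to 129 and 133 CPM in active and 201 and 219 CPM in inactive cells, with 1 marker of 6 tested called higher and 1 lower.

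Col14a1, a collagen that sits on fibril surfaces, rose from 14.6 and 17.8 CPM to 339 and 346 CPM (4.24 ± 0.12, adjusted p = 3.0e-53) and was seen in 198 and 199 active cells. Prss12, a secreted serine protease, rose from 9.43 and 5.95 CPM to 182 and 177 CPM (4.38 ± 0.16). For both genes each active sum exceeded each inactive and each control sum, the latter at 2.22 and 5.96 CPM for Col14a1 and 6.65 and 5.96 CPM for Prss12. Epn3, an endocytic adaptor, rose by 4.41 ± 0.38 and Adamts15, a matrix protease, by 4.22 ± 0.44 on the log2 scale, from 3 and 4 UMIs and from 1 and 5 UMIs in the inactive sums. Thinner counts lay behind 3 further genes of this group. Adgrb3, an adhesion receptor, went from 2 pooled UMIs in inactive to 46 in active cells, a ratio of 37.5 (95% counting interval 9.80 to 319). Scn4b, a sodium channel subunit, went from 2 to 43 (35.0, interval 9.12 to 298). Csmd1, a large membrane protein, had 5 UMIs in inactive and 67 in active cells (4.22 ± 0.47). Adgrb3 and Scn4b lost their call when mutant library 1 or 2 was left out, and Csmd1 when library 1 was.

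**Figure D3:**
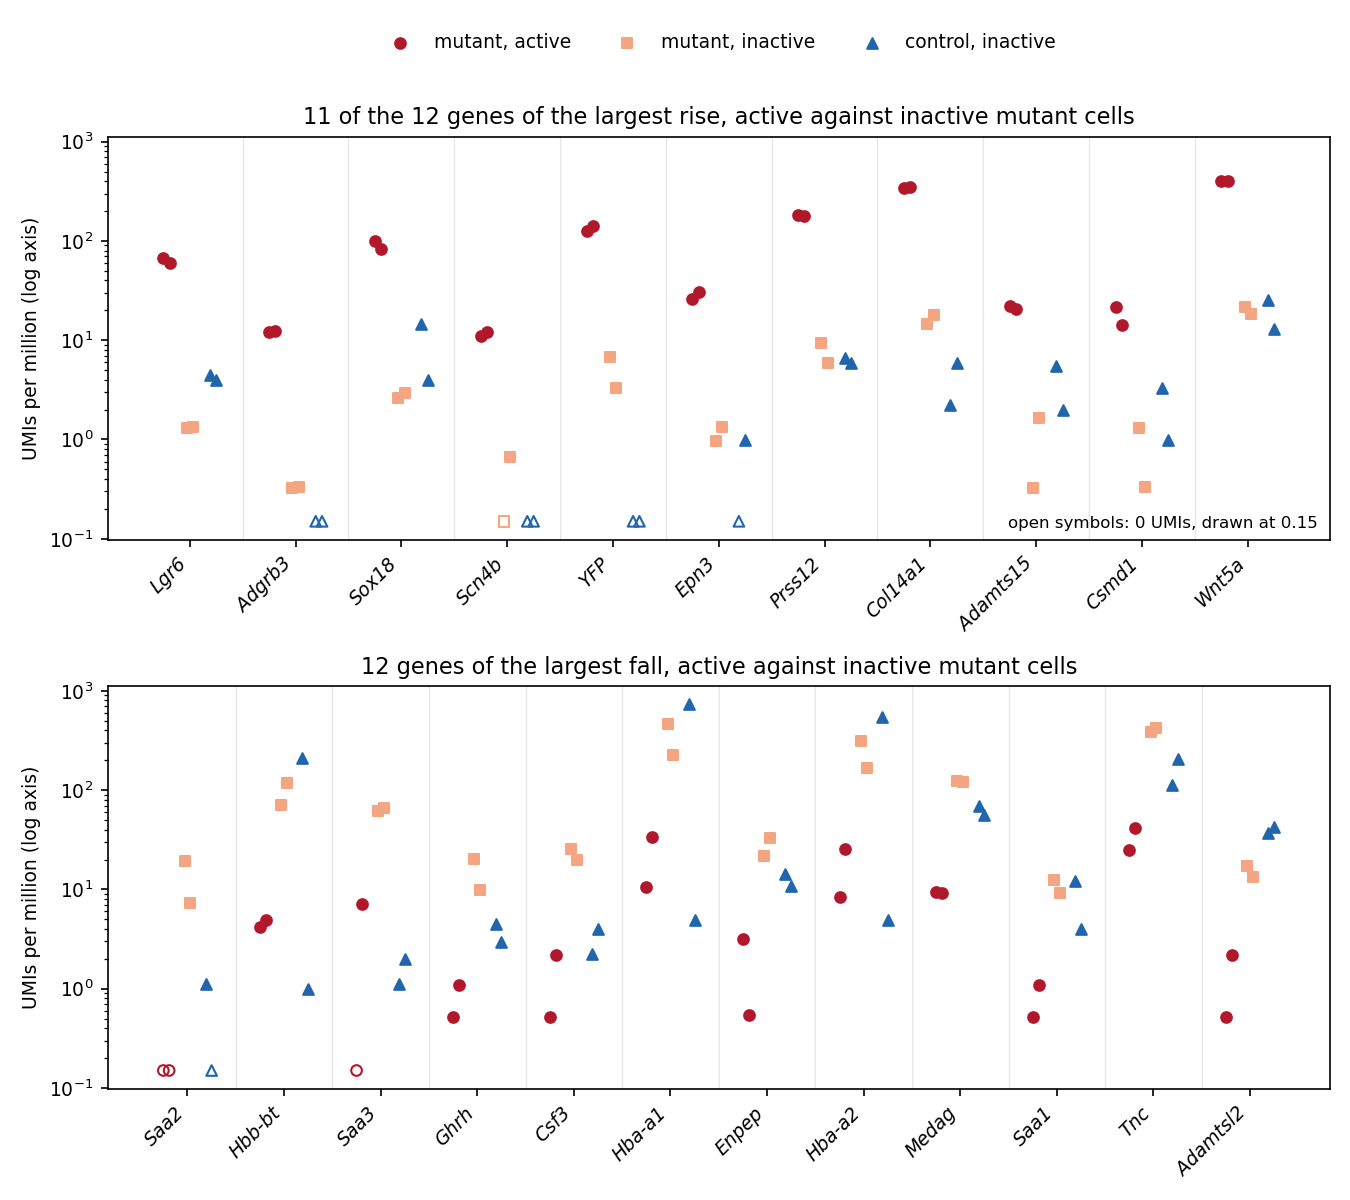
Level (y axis, CPM, log axis) of 11 of the 12 genes with the largest rise (upper panel) and the 12 with the largest fall (lower panel) in each of the 2 libraries of active mutant, inactive mutant and inactive control cells. Each point is 1 summed library and open symbols mark 0 UMIs. Every active value lies above the inactive mutant values in the upper panel and below them in the lower panel, whereas Hba-a1 is at 731 and 4.96 CPM in the control libraries.

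The reporter transcript YFP also followed the states. Its level was 125 and 142 CPM in active and 6.83 and 3.30 CPM in inactive mutant cells (log2 fold change 4.55 ± 0.19, adjusted p = 2.7e-38), and both inactive control sums had 0 UMIs, which allows up to 3.33 and 2.98 CPM. After each cell had been thinned to 3000 UMIs, 28.7% and 32.4% of active cells held a YFP UMI (exact 95% intervals 23.5 to 34.3 and 27.0 to 38.2), against 1.62% and 0.610% of inactive cells. Without thinning the shares were 53.8% and 57.5% of active and 3.04% and 1.22% of inactive cells. Cells with 1 to 3 Hedgehog UMIs lay between, at 9.44% and 14.3% after thinning. Mutant T cells, the background measure, held it in 0.430% and 0.103% of cells, at median depths of 5128 and 4891.5 UMIs. In control libraries no inactive cell did, 0 of 157 and 0 of 174, which allows up to 1.91% and 1.72%. The labels do not name the allele that carries YFP, and its sequence is close to that of eGFP, so reads could be split between both entries.

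The Lepr-Cre reporter itself differed little between states. eGFP was at 503 and 545 CPM in active and 402 and 338 CPM in inactive cells (0.35 ± 0.07, adjusted p = 4.0e-05), under the 2-fold minimum, and tomato at 1120.4 and 1129 CPM and 1189.9 and 1078 CPM (-0.17 ± 0.05). Lepr, the receptor whose locus drives the recombinase, was at 85.4 and 79.9 CPM in active and 61.1 and 45.6 CPM in inactive cells (0.48 ± 0.13), also under the minimum. Thinned to the same depth, 41.3% and 39.4% of active and 32.0% and 28.9% of inactive cells held an eGFP UMI, and so did 13.2% and 13.2% of T cells in the mutant libraries. Gt(ROSA)26Sor, transcribed from the locus that holds the reporter, was low in both mutant states, at 4.72 and 4.35 CPM and 3.25 and 3.63 CPM, and at 65.4 and 91.3 CPM in inactive control cells (mutant against control inactive cells -4.41 ± 0.28, adjusted p = 1.1e-07).

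Other members of the Hedgehog pathway followed the state genes only in part. Of 18 pathway components 14 were tested, of which 4 rose and 1 fell, with a median log2 fold change of 0.55. Of all tested genes 4.53% were called higher and 4.44% lower. Gli2, the main activator of the response, rose from 9.43 and 9.91 CPM to 31.4 and 35.3 CPM (1.63 ± 0.23), whereas Gli3, the main repressor, was at 105 and 90.3 CPM against 77.7 and 77.0 CPM (0.18 ± 0.11, adjusted p = 0.261). Smo rose from 26.7 and 28.7 CPM to 66.6 and 72.9 CPM (1.17 ± 0.15, adjusted p = 6.5e-10). The labels do not describe the Smo allele, so whether the 3′ ends counted here tell its alleles apart is not known.

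Ligand-binding partners moved in opposite directions. Scube3, a secreted protein made by the papilla of growing follicles, rose from 29.6 and 40.0 CPM to 162 and 144 CPM (1.99 ± 0.12), and Gas1, a co-receptor that binds Hedgehog ligand, fell from 223 and 238 CPM to 104 and 135 CPM (-1.11 ± 0.09, adjusted p = 3.5e-19). Scube1 was at 33.5 and 37.0 CPM against 60.2 and 61.4 CPM (-0.94 ± 0.15), just under the fold minimum. Boc, another co-receptor, and Sufu, which holds Gli factors back, were not called, at -0.37 ± 0.18 and -0.07 ± 0.22. Gas1 was not called with a threshold of 3 UMIs, without library 1 or on total UMIs. Of a second list, 17 genes reported to respond to Hedgehog elsewhere, 12 were tested, 1 rose and 0 fell, with a median of 0.07. Its members Bcl2 (0.52 ± 0.08) and Ccnd1 (0.93 ± 0.29), known targets in tumours, stayed under the fold minimum, although Ccnd1 passed it under 4 of the alternatives. Over all tested genes the median was 0.01, and 8.96% were called.

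The Gli binding letters TGGGTGGTC were looked for on both strands of the promoter windows of RefSeq (build GRCm38.p6, 250 bases before to 50 after each start). A window existed for 8327 of the tested genes and held these letters in 0.276% of them. Of 352 genes called higher with a window 1 held them (0.284%), Ank2, and of 346 called lower none did. The shorter TGGGTGGT, which lies inside the longer motif, was in 1.67% of all tested, 1.14% of higher and 1.45% of lower windows. Ank2, an adaptor between membrane and cytoskeleton, was chosen for this match after its values were known, and rose from 17.2 and 14.9 CPM to 41.9 and 42.4 CPM (1.24 ± 0.20). Its window, chr3:127409009-127409308 on the minus strand, is shown 5′ to 3′ along the gene with the match, which reads on the opposite strand, in capitals. The windows of Ptch1, chr13:63565686-63565985, and Hhip, chr8:80057959-80058258, both on the minus strand, are shown because these genes set the states. Neither holds the letters on either strand, which says nothing about sites elsewhere.
Ank2: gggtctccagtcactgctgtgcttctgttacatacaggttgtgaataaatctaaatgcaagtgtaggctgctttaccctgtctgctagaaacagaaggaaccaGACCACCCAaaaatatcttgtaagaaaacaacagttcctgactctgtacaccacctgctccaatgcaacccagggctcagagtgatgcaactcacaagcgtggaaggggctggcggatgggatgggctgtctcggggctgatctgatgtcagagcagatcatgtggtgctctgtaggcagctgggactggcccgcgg
Ptch1: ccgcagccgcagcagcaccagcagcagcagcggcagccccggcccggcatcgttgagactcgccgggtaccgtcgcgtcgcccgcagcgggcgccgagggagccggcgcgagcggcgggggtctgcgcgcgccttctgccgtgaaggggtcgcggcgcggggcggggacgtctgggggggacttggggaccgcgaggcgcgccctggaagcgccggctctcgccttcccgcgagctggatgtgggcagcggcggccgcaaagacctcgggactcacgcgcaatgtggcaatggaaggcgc
Hhip: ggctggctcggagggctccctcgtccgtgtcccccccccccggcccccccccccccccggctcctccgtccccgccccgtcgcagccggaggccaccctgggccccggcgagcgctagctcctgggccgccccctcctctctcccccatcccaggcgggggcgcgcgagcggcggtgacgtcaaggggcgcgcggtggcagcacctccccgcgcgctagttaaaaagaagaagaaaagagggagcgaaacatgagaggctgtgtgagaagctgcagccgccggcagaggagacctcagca

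**Figure D4:**
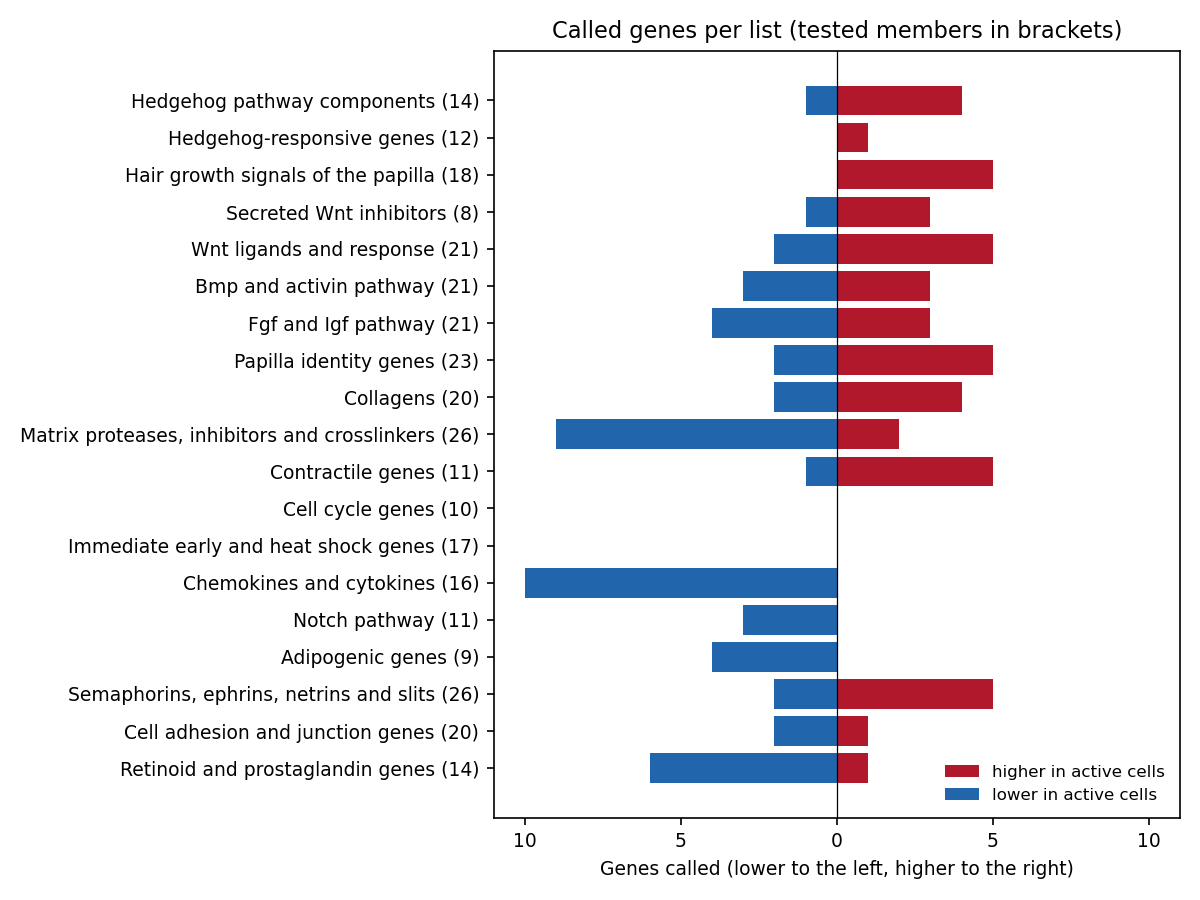
Number of genes called higher (red, to the right) and lower (blue, to the left) in active mutant cells for 19 gene lists, with the number of tested members in brackets. Chemokines and cytokines have 10 lower and 0 higher of 16 tested. Cell cycle as well as immediate early and heat shock genes have none called of 10 and 17 tested, against 8.96% of all tested genes.

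Of 20 signals that the papilla sends to the growing follicle 18 were tested, with a median of 0.30. Of these 5 were called higher and none lower, against 4.53% and 4.44% of all genes. Igf1, which acts on keratinocytes of the follicle, rose from 38.0 and 30.1 CPM to 199 and 167 CPM (2.27 ± 0.11, adjusted p = 1.3e-32). Bmp7 rose from 55.9 and 52.8 CPM to 123 and 123 CPM (1.02 ± 0.12) and Rspo2, an amplifier of Wnt signals, by 1.39 ± 0.29. Wnt5a and Scube3, given above, were the other 2. Other growth signals were under the fold minimum. Rspo1 was at 87.5 and 85.4 CPM against 81.3 and 95.8 CPM (-0.19 ± 0.11), Rspo3 at 200.2 and 201 CPM against 211 and 225 CPM (-0.28 ± 0.08, adjusted p = 0.00703), and Fgf7, a mitogen for keratinocytes, at 253 and 209 CPM against 201 and 201 CPM (0.04 ± 0.08). Vegfa, an angiogenic factor, was at 0.68 ± 0.09. Rspo2 was not called without library 1 or 2 or in DESeq2, and Bmp7, at the edge of the fold minimum, not under 5 of the alternatives.

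Secreted Wnt inhibitors were split. Of 11 such genes, Wif1 left out as a gate gene, 8 were tested. Of these 3 rose and 1 fell, against 4.53% and 4.44% of all genes. Sostdc1, which binds Wnt co-receptors and Bmp ligands, rose from 24.7 and 25.1 CPM to 169 and 165 CPM (2.59 ± 0.13, adjusted p = 1.2e-33). Frzb, a soluble Frizzled-like protein, rose from 30.6 and 25.8 CPM to 128 and 119.6 CPM (1.98 ± 0.14), and its relative Sfrp5 rose from 7 and 1 UMIs to 19 and 29 UMIs (3.08 ± 0.48), held by 5 active cells in each library. The Sfrp5 call was lost without library 1. Notum, an enzyme that inactivates Wnt ligands, fell from 175 and 168 CPM to 47.2 and 69.1 CPM (-1.73 ± 0.11, adjusted p = 1.1e-25). Its control level, 520.1 and 515 CPM, lay above all 4 mutant sums, so the order for Notum was control, inactive mutant, active mutant. Dkk2, which blocks the Wnt co-receptor Lrp6, was at 305 and 292 CPM against 468 and 428 CPM (-0.74 ± 0.07), under the fold minimum.

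Among 21 tested Wnt ligands, receptors and response genes 5 rose and 2 fell, against 4.53% and 4.44% of all genes. Lgr4, a receptor for R-spondins like Lgr6, rose from 33.5 and 28.4 CPM to 109.5 and 98.4 CPM (1.59 ± 0.14). Fzd2, a Wnt receptor, rose by 1.26 ± 0.16, and Tcf7, a factor that acts with beta-catenin, by 1.20 ± 0.18. Wnt5b also rose (1.39 ± 0.40), beside Wnt5a. The ligands Wnt10a and Wnt6 fell, by changes of -3.05 ± 0.47 and -1.18 ± 0.27, from 35 and 40 UMIs to 3 and 3 UMIs for Wnt10a. Axin2 (0.12 ± 0.24, adjusted p = 0.773) and Lef1 (0.32 ± 0.10), which report canonical Wnt signalling in many tissues, were not called. Wnt5b and Wnt6 were not called without library 1 or 2 or in DESeq2, and Wnt10a not without library 2. Fzd2 was at 0.99 in cells of 5000 to 9000 UMIs, just under the fold minimum.

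Bmp4 rose most among the genes of the Bmp and activin pathway. Of these 21 were tested, 3 higher and 3 lower, against 4.53% and 4.44% of all genes. Bmp4 (chromosome 14, 46383520 to 46390669, minus strand) went from 105 and 125 CPM to 690.2 and 653 CPM (2.39 ± 0.08, adjusted p = 1.1e-46), and inactive control cells had 141 and 159 CPM. Bmp3, an atypical family member, rose from 16.9 and 17.5 CPM to 81.8 and 67.4 CPM (1.96 ± 0.17). Bmp7, given above, was the third. Gdf10, a member of the same ligand family, fell from 52.4 and 65.1 CPM to 20.4 and 15.2 CPM (-1.86 ± 0.19). Inhbb, an activin subunit, fell by a change of -1.28 ± 0.29. Id3, a common Bmp response gene, was at 1159 and 1181 CPM against 905 and 819 CPM (0.29 ± 0.05), and Fst, which binds activin, at 139.9 and 164 CPM against 51.7 and 94.1 CPM (0.93 ± 0.11), both under the fold minimum. Inhbb was not called without library 1 or 2 or in DESeq2, and Fst was called without library 2.

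Of 21 tested genes of the Fgf and Igf pathway 3 rose and 4 fell, against 4.53% and 4.44% of all genes. Igfbp5 rose from 57.2 and 45.6 CPM to 275 and 215 CPM (2.096 ± 0.10) and Igfbp4 from 86.8 and 55.5 CPM to 214 and 225 CPM (1.48 ± 0.10), both binding proteins of Igf. Their relative Igfbp3 fell from 1588 and 1474 CPM to 831 and 870.1 CPM (-1.004 ± 0.05). Spry2, a feedback inhibitor of Fgf signalling, fell from 185 and 181 CPM to 76.0 and 70.7 CPM (-1.47 ± 0.10, adjusted p = 3.7e-24). The ligand Igf2 (-1.31 ± 0.41) and Igfbp2 (-1.09 ± 0.42) also fell, at 33 and 22 and at 18 and 29 UMIs in inactive cells. Igfbp3 lay at the edge of the fold minimum and was not called under 11 alternatives, among them without library 1. The calls of Igf2 and Igfbp2 were lost under 5 and 9 of them, that of Igf2 without library 1 or 2. Igfbp4 was under the fold minimum, at 0.94 and 0.93, with the state called on thinned counts and with Wif1 and Inhba left out of the gate.

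Genes that mark the papilla did not move together. Of 25 identity genes 23 were tested, with a median of 0.48. Of these 5 rose and 2 fell, against 4.53% and 4.44% of all genes. Vcan, a proteoglycan of the papilla core, rose from 310.2 and 320.4 CPM to 966 and 930.4 CPM (1.43 ± 0.06, adjusted p = 1.5e-36). Enpp2, an enzyme that makes lysophosphatidic acid, rose from 798 and 812 CPM to 1792 and 1814 CPM (1.01 ± 0.05). Alpl, the alkaline phosphatase used to stain papillae, rose from 9.43 and 7.27 CPM to 48.7 and 43.0 CPM (2.29 ± 0.22), and Ndp, a ligand of Frizzled receptors, from 4.88 and 4.62 CPM to 34.6 and 34.3 CPM (2.69 ± 0.27). Sox18, given above, was the fifth. A second list of 10 papilla markers, which shares Sox18 and others with this one, was lower in sum in active cells. It stood at 969 and 1005 CPM in active, 1580 and 1593 CPM in inactive and 1887 and 1604 CPM in inactive control cells. Of its members 4 were called higher and 2 lower.

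Crabp1 (chromosome 9, 54764748 to 54773110, plus strand), a retinoic acid-binding protein, fell from 1076 and 1079.7 CPM to 250.5 and 305 CPM (-2.12 ± 0.07, adjusted p = 6.6e-49). Its inactive mutant and inactive control levels overlapped, the latter at 1199 and 938 CPM, so active cells alone stood apart. Twist2, a mesenchymal factor, fell from 183 and 212 CPM to 86.5 and 81.6 CPM (-1.39 ± 0.10). Corin, a protease of the papilla, was at 62.9 and 52.7 CPM against 38.0 and 36.7 CPM (0.47 ± 0.15), Sox2 at 29.9 and 29.4 CPM against 16.9 and 21.1 CPM (0.48 ± 0.21, adjusted p = 0.074) and Trps1 at 0.54 ± 0.07, none of them called. The Enpp2 call was at the edge of the fold minimum and was lost under 6 alternatives.

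Among 20 tested collagens 4 rose and 2 fell, against 4.53% and 4.44% of all genes. Col23a1, a membrane collagen, rose from 159 and 182 CPM to 512 and 502 CPM (1.42 ± 0.08), Col15a1, a basement membrane collagen, by 1.42 ± 0.08 and Col11a1, a minor fibril component, by 2.13 ± 0.14, beside Col14a1. Col6a6 fell from 17.2 and 10.9 CPM to 2.096 and 2.18 CPM (-2.85 ± 0.43) and Col5a3 by a change of -2.04 ± 0.29. Col6a6 stood at 72.1 and 93.3 CPM in inactive control cells, above every mutant sum. Col5a3 was not called without library 1. The list's median of -0.35 was below that of all genes.

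Among 26 tested genes of the list of matrix proteases, inhibitors and crosslinkers 2 rose and 9 fell, with a median of -0.45. Of all tested genes 4.53% were called higher and 4.44% lower. The list also holds other matrix proteins, and Adamts15, which rose, and Adamtsl2, which fell, are not on it. Tnc (chromosome 4, 63959785 to 64047015, minus strand), an adhesion-modulating matrix protein, fell from 387 and 423 CPM to 25.2 and 41.9 CPM (-3.76 ± 0.11, adjusted p = 3.1e-51). In library 2 it was detected in 257 of 492 inactive and in 28 of 287 active cells. Mmp3, a stromal protease, went from 325 and 361 CPM to 8.91 and 79.9 CPM (-3.19 ± 0.15), with the active value of library 1 well under that of library 2. Postn, a matricellular protein, fell from 177 and 166 CPM to 52.9 and 58.2 CPM (-1.78 ± 0.11), and Mmp2, a gelatinase, from 135 and 145 CPM to 62.9 and 77.2 CPM (-1.16 ± 0.11).

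The crosslinking enzyme Lox fell by a change of -1.79 ± 0.28, elastin (Eln) by -1.34 ± 0.17 and Spon2 by -2.31 ± 0.22. Mmp13 (-2.81 ± 0.39) and Timp1 (-1.13 ± 0.41, adjusted p = 0.0288) were the remaining genes called lower. The value of Timp1 was 0.30 without library 2 and -2.08 without library 1. Its call was lost under 11 alternatives, among them DESeq2, no replicate block and a threshold of 3 UMIs. Adamts5, a protease that cuts versican, rose from 33.5 and 36.3 CPM to 95.9 and 93.5 CPM (1.28 ± 0.14), and Fbn2, a microfibril protein, by 1.06 ± 0.30. Mmp13 was not called without library 2, or with the state called on counts thinned to 3000 UMIs, where it was at -0.40 (adjusted p = 0.597), and Fbn2 not without library 1 or 2 or in DESeq2. The Eln call was lost under 3 alternatives, each with another gate or collagen limit.

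Among contractile genes 5 of 11 tested rose and 1 fell, against 4.53% and 4.44% of all genes, with a median of 0.86. Myl9, a myosin light chain, rose from 47.8 and 43.9 CPM to 190.2 and 176 CPM (1.84 ± 0.11, adjusted p = 4.2e-28). Cnn2, a calponin, rose from 43.6 and 41.3 CPM to 186 and 157 CPM (1.85 ± 0.11), Acta2, smooth muscle actin, from 34.1 and 31.0 CPM to 115 and 82.7 CPM (1.44 ± 0.14), and Cald1, caldesmon, from 371 and 454 CPM to 993 and 909.8 CPM (1.05 ± 0.07). Actg2 also rose (1.47 ± 0.43), and Myh11, the smooth muscle myosin heavy chain, fell (-1.62 ± 0.33). Cald1 was not called without library 1, Actg2 not without library 2, and Myh11 not without either. Dermal sheath markers, a list that also holds Acta2, Actg2 and Myh11, summed to 297 and 254 CPM in active and 324 and 339 CPM in inactive cells, with 2 of 9 tested called higher and 3 lower. Their part in these changes was not tested.

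Chemokines and cytokines were lower wherever they were called, with 10 of 16 tested lower and none higher, against 4.44% of all genes called lower. The median log2 fold change of the 16 was -1.76. Ccl2, which attracts monocytes, fell from 1139.8 and 1015 CPM to 195 and 196 CPM (-2.62 ± 0.07, adjusted p = 6.8e-55). Cxcl1, which attracts neutrophils, fell from 1031 and 1016 CPM to 275 and 364 CPM (-1.85 ± 0.07). Il11, a cytokine of the Il6 family, fell from 151 and 145 CPM to 49.3 and 50.6 CPM (-1.73 ± 0.11), and Cxcl10, an interferon-induced chemokine, from 103 and 98.4 CPM to 32.0 and 32.6 CPM (-1.80 ± 0.14).

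Il6 itself fell from 86.5 and 92.8 CPM to 21.5 and 44.0 CPM (-1.63 ± 0.15) and Lif, of the same family, by a change of -2.67 ± 0.25. The other 4 genes called lower were Cxcl2 (-2.14 ± 0.12), Ccl7 (-1.82 ± 0.19), Csf1 (-2.12 ± 0.24) and Csf3 (-4.19 ± 0.42). Ccl7 was not called under 4 alternatives and was at -0.60 (adjusted p = 0.122) in cells of 5000 to 9000 UMIs. In inactive control cells Ccl2 stood at 556 and 714 CPM and Cxcl1 at 516 and 527 CPM, between both mutant states. Myeloid markers of the list for macrophages and Langerhans cells summed to 183 and 82.1 CPM in active and 84.2 and 258 CPM in inactive cells, so they did not follow the state in both libraries. T and innate lymphoid markers stood at 37.2 and 28.8 CPM in active against 74.5 and 65.7 CPM in inactive cells, with 4 of 5 tested called lower. Their part in the fall of the cytokines was not tested.

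Of 14 tested retinoid and prostaglandin genes 6 fell and 1 rose, against 4.44% and 4.53% of all genes, with a median of -0.53. Cyp26b1, which degrades retinoic acid, fell from 238 and 254 CPM to 44.0 and 48.9 CPM (-2.56 ± 0.11, adjusted p = 3.2e-39), beside Crabp1. The prostaglandin enzymes Ptgs1 (-2.13 ± 0.17), Ptges (-1.51 ± 0.10) and Ptgs2 (-1.18 ± 0.08) fell, as did Rarres2 (-1.21 ± 0.21). Ptgs2 was under the fold minimum in 3 alternatives, at -0.88 with the state called on thinned counts. Of 11 tested Notch pathway genes 3 fell and none rose: the ligand Dll1, from 219.8 and 245 CPM to 78.6 and 80.5 CPM (-1.70 ± 0.10), and the target genes Heyl (-2.44 ± 0.62) and Nrarp (-1.59 ± 0.42). DESeq2 called neither Heyl nor Nrarp, and Rarres2 was not called in DESeq2 or without library 1. The Nrarp call was lost under 5 alternatives, and Nrarp was at -0.60 (adjusted p = 0.488) with Wif1 and Inhba left out of the gate. Hes1, another Notch target, was at 189.7 and 224 CPM against 380.1 and 280.4 CPM (-0.82 ± 0.09), under the fold minimum, which it passed without library 2.

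Of 9 tested adipogenic and lipid genes 4 fell and none rose, against 4.44% and 4.53% of all genes. Apoe, a lipid carrier, fell from 3988 and 3829.9 CPM to 1411 and 1512 CPM (-1.58 ± 0.04, adjusted p = 3.1e-53). Inactive control cells held Apoe at 1155 and 1322 CPM, nearer to the active than to the inactive mutant cells. Lpl, which frees fatty acids from lipoproteins, fell from 55.9 and 66.1 CPM to 7.86 and 13.1 CPM (-2.70 ± 0.21) and Plin2, a lipid droplet protein, from 137 and 159 CPM to 50.3 and 48.4 CPM (-1.74 ± 0.11). Fabp4, a fatty acid-binding protein, fell by a change of -1.76 ± 0.39, but with the highest cell of each sum left out its adjusted p was 0.337. Fabp4 was not called without library 1 or 2 or in DESeq2 either.

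Guidance and adhesion genes changed individually. Of 26 tested semaphorin, ephrin, netrin and slit genes 5 rose and 2 fell. Epha4, an ephrin receptor, rose from 127 and 129 CPM to 317 and 290.4 CPM (1.09 ± 0.08), together with Epha3 (1.93 ± 0.25), Ephb1 (2.96 ± 0.33), Ephb2 (1.38 ± 0.34) and the semaphorin Sema6a (1.26 ± 0.19). Sema5a (-1.07 ± 0.15) and Sema3d (-1.14 ± 0.36) fell. Of 20 tested adhesion genes, Itga9, an integrin that binds tenascin among other ligands, rose from 17.2 and 15.2 CPM to 66.0 and 65.3 CPM (1.86 ± 0.18), and Ncam2 fell from 111 and 107 CPM to 11.5 and 18.5 CPM (-3.02 ± 0.17, adjusted p = 8.4e-30), as did Cadm2 (-1.17 ± 0.37). Ephb2, Sema3d and Cadm2 were not called without library 1 or 2, Epha3, Ephb1 and Sema5a not without library 2, and Sema6a not without library 1. Epha4 was at 0.99 with the state called on thinned counts. None of 10 tested cell cycle genes and none of 17 immediate early and heat shock genes were called in edgeR or in DESeq2. In edgeR 3 and 11 of them had an unadjusted p under 0.05, as did 4077 of all 10933 tested genes. With 8.96% of all genes called, lists of this size may hold no call. The medians of the cell cycle and the immediate early and heat shock lists were -0.22 and -0.35. Of the 21 cell cycle genes 11 were too low to be tested.

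Among the 12 largest falls, 8 genes rested on a small number of cells. Saa2, an acute-phase protein, had 60 and 22 UMIs in inactive cells and 0 in both active sums, at least 16.8-fold lower against a floor of 3 pooled UMIs. Only 3 and 6 inactive cells held it, and 1 cell gave 85.0% of the UMIs in library 1. Its relatives Saa3 (-4.33 ± 0.28) and Saa1 (3 UMIs in active against 66 in inactive cells, a ratio of 13.5, 95% counting interval 4.43 to 67.2) were seen in at most 21 inactive cells of a library. Saa2 was not called in DESeq2, and Saa1 not without library 1. The globins Hba-a1 (-4.07 ± 0.16), Hba-a2 (-3.95 ± 0.16) and Hbb-bt (-4.51 ± 0.22) came mostly from single cells, 1 inactive cell of library 2 holding 94.4% of its Hba-a1 UMIs. Erythrocyte markers summed to 54.0 and 275 CPM in active, 2389 and 1111 CPM in inactive and 4033 and 33.8 CPM in inactive control cells. Paralogous globin and Saa genes share sequence, so reads may be divided between them. Csf3 (1 cell with 86.1% of the inactive UMIs of library 1) and Ghrh (3 UMIs in active against 92 in inactive cells, ratio 18.8, interval 6.24 to 93.0) were similar.

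The other 4 of these genes were spread over many cells. Medag, a gene named for adipogenesis, fell from 123 and 119.9 CPM to 9.43 and 9.24 CPM (-3.85 ± 0.18) and was detected in 86 and 92 inactive cells. Enpep, a membrane peptidase that cleaves angiotensin, fell from 66 and 100 UMIs to 6 and 1 UMIs (-3.97 ± 0.38) and was detected in 58 and 79 inactive cells. Adamtsl2, a protein of matrix microfibrils, fell from 53 and 40 UMIs to 1 and 4 UMIs (-3.61 ± 0.47), while inactive control cells had it at 36.6 and 42.7 CPM. Tnc, given above, was the fourth.

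Other cell types were followed through lists of their markers, to be read beside the 8.96% of all tested genes that were called. The 10 genes of dermal fibroblasts summed to 1045 and 1292 CPM in active, 2012 and 1481 CPM in inactive and 2501 and 1337 CPM in inactive control cells, with 3 called lower and 1 higher of 10 tested. Dpt was among the lower ones, from 306 and 343 CPM to 38.3 and 41.9 CPM (-3.17 ± 0.11). In library 2 Dpt fell by more CPM than the whole sum did, so the other members together were higher in active cells there. Basal keratinocyte markers summed to 929 and 995 CPM in active and 1197 and 1238 CPM in inactive cells, with 2 of 7 called lower. Lymphatic endothelial markers were at 24.1 and 16.9 CPM against 207 and 51.5 CPM. The part of these cell types in the differences was not tested.

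Levels were also taken in the cells that the states left out. Mutant cells were divided by their number of Hedgehog UMIs, and the levels are a description, since cells with more UMIs are also those nearer to the rule. Wnt5a stood at 21.5 and 18.5 CPM with 0 such UMIs, 23.1 and 14.999 CPM with 1, 86.7 and 109 CPM with 2 to 3, 243 and 221 CPM with 4 to 7 and 519 and 526 CPM with 8 or more. Bmp4 went over the same bins from 105 and 125 CPM through 147 and 151 CPM, 280 and 303 CPM, and 529 and 483 CPM to 802 and 777 CPM. For Wnt5a cells with 1 UMI were thus near those with 0, while Bmp4 was somewhat higher in them. Both genes were higher in every further bin of both libraries. Col14a1 was already apart at 1 UMI, with 42.7 and 40.7 CPM against 14.6 and 17.8 CPM at 0.

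Falling genes were lower in cells with 2 or more UMIs. Tnc was at 387 and 423 CPM in cells with 0, 325 and 436 CPM with 1, 115 and 162 CPM with 2 to 3, 38.5 and 83.9 CPM with 4 to 7 and 15.9 and 11.3 CPM with 8 or more. Crabp1 was at 1076 and 1080 CPM with 0, 992 and 809.96 CPM with 1, 390 and 552 CPM with 2 to 3 and 232 and 271 CPM with 8 or more. Rspo3, which was not called, showed no such order, with 211 and 225 CPM at 0, 132 and 138 CPM at 2 to 3 and 224 and 238 CPM at 8 or more.

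**Figure D5:**
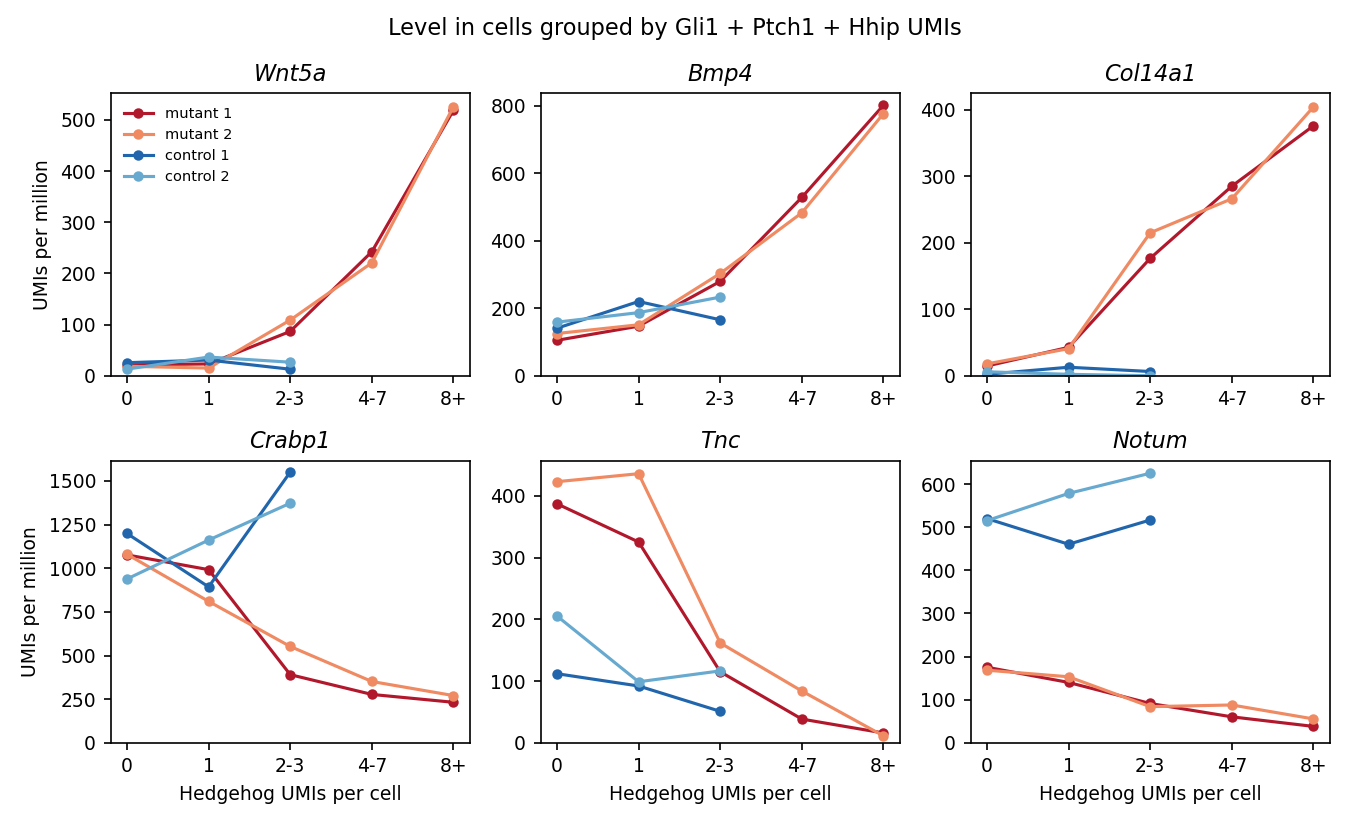
Level (y axis, CPM) of 6 genes in gated cells divided by their Gli1, Ptch1 and Hhip UMIs (x axis), 1 line per library. Control lines end at 2 to 3 UMIs, since higher bins hold 5 cells or fewer. Wnt5a, Bmp4 and Col14a1 are higher and Crabp1, Tnc and Notum lower at 8 or more than at 0 UMIs in both mutant libraries, while Wnt5a is at most 36.6 CPM in every control bin shown.

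The control libraries allowed only a weaker split. With 1 and 5 active cells, sums at 4 or more UMIs could not be made, so cells with at least 2 UMIs (23 and 33) were set against cells with 0 (157 and 174). Of 6795 genes tested 30 were higher (0.442%) and 36 lower (0.53%), together 0.971%. When each gene's highest cell was dropped from each sum, an alternative chosen after seeing the data, edgeR called 0 higher and 1 lower, with 327 genes at an unadjusted p under 0.05. DESeq2 called 7 higher and 5 lower, and 496 genes had an unadjusted p under 0.05. Of 417 genes called in mutant cells and tested here, 19 were called in the same direction and 10 in the opposite one.

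The state effect itself was compared between genotypes at this same split. The interaction was called at 2-fold for 59 genes higher in the mutant (0.54% of 10936) and 93 lower (0.85%). Wnt5a was among them: its log2 fold change was -0.04 ± 0.61 in control cells (adjusted p = 1.00), and the mutant effect exceeded the control effect by 3.998 ± 0.50 (adjusted p = 7.6e-04). Control cells with 2 to 3 Hedgehog UMIs held only 2 and 5 Wnt5a UMIs in libraries 1 and 2. Those with 4 to 7 held 0 and 0, so the control effect of Wnt5a rests on few counts. Bmp4 differed by 1.76 ± 0.21 (adjusted p = 4.5e-04), Crabp1 by -2.12 ± 0.16 (adjusted p = 8.9e-06) and Notum by -1.50 ± 0.19 (adjusted p = 7.6e-04). Smo (0.41 ± 0.36, adjusted p = 0.747) and Gli2 (0.46 ± 0.55, adjusted p = 0.837) did not pass. Control cells with 2 or more UMIs mostly hold 2 or 3, and mutant cells mostly more, so the same split does not hold the same counts in both genotypes. Without control library 1 the interaction was called for 3 genes higher and 14 lower, and without control library 2 for 18 and 49. Without control library 1 Wnt5a (3.17, adjusted p = 0.179), Bmp4 (1.83, adjusted p = 0.109) and Notum (-1.56, adjusted p = 0.0971) no longer passed, and Crabp1 did (-2.14, adjusted p = 0.0245).

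Inactive mutant cells were not the same as inactive control cells. Of 10284 genes 117 were higher (1.14%) and 107 lower (1.04%) in the mutant, and these values share the inactive mutant sums with the state comparison, so their folds are set side by side only. The control cells were shallower, with medians of 5282 and 5074.5 UMIs, and had 9 and 9 gate UMIs in the median cell against 18 and 19. Keratinocyte markers moved with this comparison. Basal ones summed to 1197 and 1238 CPM in inactive mutant against 1735 and 1718 CPM in inactive control cells, hair follicle ones to 410 and 443 CPM against 806 and 893 CPM, and suprabasal ones to 253 and 260 CPM against 391 and 377 CPM. Their part in the differences was not tested. Some genes that did not follow the state were higher in the inactive mutant cells. Rspo3 stood at 211 and 225 CPM against 77.6 and 77.4 CPM in the control (1.57 ± 0.12, adjusted p = 2.8e-07), Rspo1 at 81.3 and 95.8 CPM against 31.0 and 26.8 CPM (1.70 ± 0.18) and Fgf7 at 201 and 201 CPM against 92.0 and 84.4 CPM (1.27 ± 0.11). Corin was higher as well, at 38.0 and 36.7 CPM against 11.1 and 9.93 CPM (1.91 ± 0.26).

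For several genes the 2 differences had opposite signs. Apoe was higher in inactive mutant than in inactive control cells (1.74 ± 0.06, adjusted p = 1.3e-10) and lower in active than in inactive mutant cells. Tnc (1.42 ± 0.17), Cyp26b1 (1.28 ± 0.14) and Ncam2 (1.90 ± 0.16) had the same pair of signs. Vcan (1.03 ± 0.12), Enpp2 (1.31 ± 0.10), Sostdc1 (1.48 ± 0.32), Frzb (1.37 ± 0.29) and Col14a1 (2.02 ± 0.45) were higher in both comparisons, and Notum (-1.51 ± 0.09) and Col6a6 (-2.47 ± 0.22) lower in both. Wnt5a (0.16 ± 0.30, adjusted p = 0.826), Bmp4 (-0.30 ± 0.12) and Crabp1 (0.10 ± 0.08) were not called between the inactive cells. Sostdc1, Frzb and Col14a1 lost this call without mutant library 1 or 2 or in DESeq2, and Vcan without control library 1.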

How the data were processed

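The authors deposited raw UMI counts per gene and barcode, restricted to barcodes called as cells. Per the file headers, Cell Ranger 3.1.0 made the unsorted matrices. The builds mm10 and GRCm38 come from the submitters' processing notes, as do Seurat 3.2.2 and Scanpy 1.6.0. Unsorted cells were captured with version 3 chemistry, per the labels' protocols. Members and gene lists were chosen with earlier results of these data known.

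Counts were summed per library and state. Gli1, Ptch1 and Hhip were removed before library sizes, and sums were tested with edgeR 4.0.16 (TMM, filterByExpr, quasi-likelihood test, library as a block plus state, Benjamini-Hochberg adjustment). With 1 residual degree of freedom, the spread is largely borrowed across genes. SE is the log2 fold change divided by the root of the F statistic. Simulated data for the mutant comparison held 10933 genes, 200 of them changed. The test recovered 66% of changes of 1 and 95% of changes of 2 on the log2 scale, with 7 false calls. This was scored by an adjusted p under 0.05 alone, without the fold minimum. Every simulated gene had 1 common spread and none rested on single cells, so these rates need not hold for the calls above.

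Named genes were the 12 largest changes per direction with at least 20 UMIs in both sums of the higher state, and called list members. A few of these are not reported here. Scrublet in scanpy 1.11.5 marked 6 active and 20 inactive mutant cells as doublets. It marked 0 cells of control library 1, where it is taken not to have worked, so doublets stayed in, and leaving out those of the mutant libraries was an alternative. Both states come from the same library, which pairs their sums. Across genotypes the replicate numbers did not pair libraries (correlation of deviations 0.037). Coordinates are from GENCODE release M21 (GRCm38), where 143 of 146 genes matched by identifier. Exact intervals and floors of 3 counts cover counting error only.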

Additional observations from a re-analysis of the deposited data

Results flagged for a closer look

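At the split of at least 2 against 0 Hedgehog UMIs, the state effect differed between mutant and control cells for 36 of the 91 genes named here that could be tested in both genotypes (edgeR interaction, adjusted p under 0.05). Over all 6786 genes tested in both genotypes 162 passed, or 2.39%. The named genes were chosen for their state effect in the mutant, which is 1 term of this difference, so their share is a description. Values are the log2 effect in mutant minus that in control cells. Among signals, receptors and antagonists it was 3.998 for Wnt5a, 3.09 for Scube3, 1.89 for Igf1, 1.76 for Bmp4, 1.66 for Lgr4, 1.38 for Igfbp4, -1.83 for Scube1, -0.94 for Gas1, -1.50 for Notum, -0.74 for Dkk2, -2.14 for Gdf10, -1.36 for Spry2, -0.69 for Igfbp3 and -1.35 for Kitl. Papilla, matrix and contractile genes gave 1.36 for Vcan, 0.84 for Enpp2, 1.45 for Col23a1, 1.75 for Acta2, 1.61 for Cnn2, 1.32 for Cald1, -2.12 for Crabp1, -2.21 for Col6a6, -1.59 for Postn, -2.09 for Tnc, -2.32 for Eln and -3.66 for Medag.

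Cytokines gave -3.17 for Cxcl1, -2.15 for Il6, -4.77 for Lif and -2.59 for Ccl7. The remaining genes gave -1.17 for Dll1, -1.61 for Hes1, -1.23 for Sema5a, -2.79 for Ncam2, -2.70 for Cyp26b1 and -1.67 for Ptgs1. Kitl, the ligand of the receptor Kit, was called higher in control cells with 2 or more UMIs (1.31 ± 0.34, adjusted p = 0.0376) and was at -0.32 ± 0.12 in the mutant.

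Single cells entered some of these values. When each gene's highest cell was dropped from each sum, an alternative chosen after seeing the data, 29 of the 36 still passed. The other 7 were Gdf10, Spry2, Acta2, Il6, Lif, Eln and Ccl7. The control sums of at least 2 UMIs held 23 and 33 cells, and the test leaned on both. Without control library 1 the difference passed for 5 of the 36 (Vcan, Crabp1, Cxcl1, Lif and Cyp26b1) and without control library 2 for 15. Without mutant library 1 or 2 it passed for 23 or 25. No sign changed in these refits.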

How the results depend on the processing

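The mutant comparison rests on 2 libraries per genotype, 1 residual degree of freedom and at most 493 cells a sum. Of the 137 genes named with a state fold change in mutant cells 112 were called, of which 69 were called in all the alternatives run for them and 1, Timp1 (-2.08 to 0.30 without a mutant library), changed sign. For mutant cells, DESeq2 called 158 higher and 213 lower in place of 495 and 485, and no fold minimum gave 1363 and 1673. Leaving out a mutant library gave 152 to 169 higher and 239 to 260 lower. The other alternatives stayed within 1.5 times of the main counts, among them threshold 3 (400 and 386) or 6 (495 and 518), cells thinned to 3000 UMIs (363 and 380), doublets left out (473 and 455), Wif1 and Inhba left out of the gate (384 and 425), shared barcodes left out (501 and 482) and no replicate block (477 and 466). Total UMIs in place of TMM gave 690 and 346, as given above. The genes called changed more than their number. Of the 495 higher and 485 lower calls, thinned cells kept 275 and 303. The state called on thinned counts kept 260 and 298, and the gate without Wif1 and Inhba 334 and 352.

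For control cells (30 higher, 36 lower), DESeq2 gave 7 and 5, no filter 58 lower, no replicate block 6 and 5, and leaving out the highest cells 0 and 1. Without a control library the range was 37 to 42 higher and 45 to 49 lower. The interaction (59 and 93) ranged from 3 to 56 higher and 14 to 93 lower without a library. Inactive mutant against control cells (117 and 107) gave 57 and 41 in DESeq2, 40 lower with no filter, 73 and 52 in thinned cells, and 64 to 178 higher and 35 to 149 lower without a library. The replicate block, which changed no count by over 1.5 times, gave 146 and 138. The difference in active share, 26.2 percentage points, was 20.6 to 28.5 under other thresholds and gates and 25.5 to 26.8 without a library.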
